A study of Drosophila melanogaster with 12 samples.

Results

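Genes for accessory gland and seminal fluid proteins were followed in RNA from Drosophila melanogaster testes. The genes were taken by symbol: Acp followed by a digit (leaving out Acp1 and the Acp65A symbols, which stand for adult cuticle proteins), Sfp followed by a digit, and Mst57D. This gave 47 genes, 17 Acp, 27 Sfp and 3 Mst57D, among 15367 rows of the count table, which hold 15240 genes and 127 transposable elements (TEs). RNA depleted of ribosomal RNA was sequenced from wild type testes and from klp10A RNAi testes, in which the germline driver nos-gal4 expresses a hairpin against klp10A (UAS-klp10A TRiP.HMS00920). Both genotypes were 0 to 2 days old, with 3 libraries each and 300 pairs of testes per library. The driver is one of the germ line and not of the accessory gland.

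The accessory glands are a pair of secretory glands of the male reproductive tract that join the ejaculatory duct near the seminal vesicles, so they lie next to the testes when these are dissected. Their cells secrete most of the proteins of the seminal fluid, which pass to the female at mating, change her egg laying and receptivity, and act on sperm storage. Their level in testis libraries was taken here as a measure of other tissue in the samples, and the tissue each read came from was not measured. In RNA from whole tissue, fewer cells of a type and less RNA per cell cannot be told apart.

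The libraries held 23316483, 20044004 and 19929803 counts in wild type replicates 1 to 3, and 18634687, 25536724 and 18837061 counts in klp10A RNAi replicates 1 to 3. Klp10A itself had 1458, 802 and 1527 counts in wild type against 327, 364 and 313 in klp10A RNAi, a log2 fold change of -2.35 ± 0.16 (SE, edgeR adjusted p = 0.00105), so the target was lower in each library labelled RNAi. Genes with CR symbols, which FlyBase uses for genes that code for no protein, took 24.9% to 51.6% of the counts of a library, with the highest share in wild type replicate 2. Because of this, levels are given as CPM (counts scaled to library size) after TMM scaling, which sets the libraries to a common level of the bulk of features. Of the 47 genes, 46 passed the filter on low counts, among 12100 features tested. The one below the filter was Sfp24Ba, with 8 to 19 counts in each library.

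The seminal fluid protein genes took 147214, 69723 and 130028 counts in wild type replicates 1 to 3 and 97702, 146583 and 106587 counts in klp10A RNAi replicates 1 to 3. These were 0.631%, 0.348% and 0.652% of all counts in wild type, against 0.524%, 0.574% and 0.566% in klp10A RNAi. Their summed level after TMM scaling was 7745, 4958 and 6266 CPM in wild type against 3937, 5810 and 4444 CPM in klp10A RNAi. The genotypes overlapped, since klp10A RNAi replicate 2 lay above wild type replicate 2. The mean was 6323 ± 1394 CPM in wild type and 4731 ± 969 CPM in klp10A RNAi (SD, n = 3 each), a ratio of 0.748 with TMM, but on the total counts the log2 ratio was 0.03 and the direction turned. Acp36DE alone made up much of the sum, and without it the TMM ratio was 0.779.

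**Figure D1:**
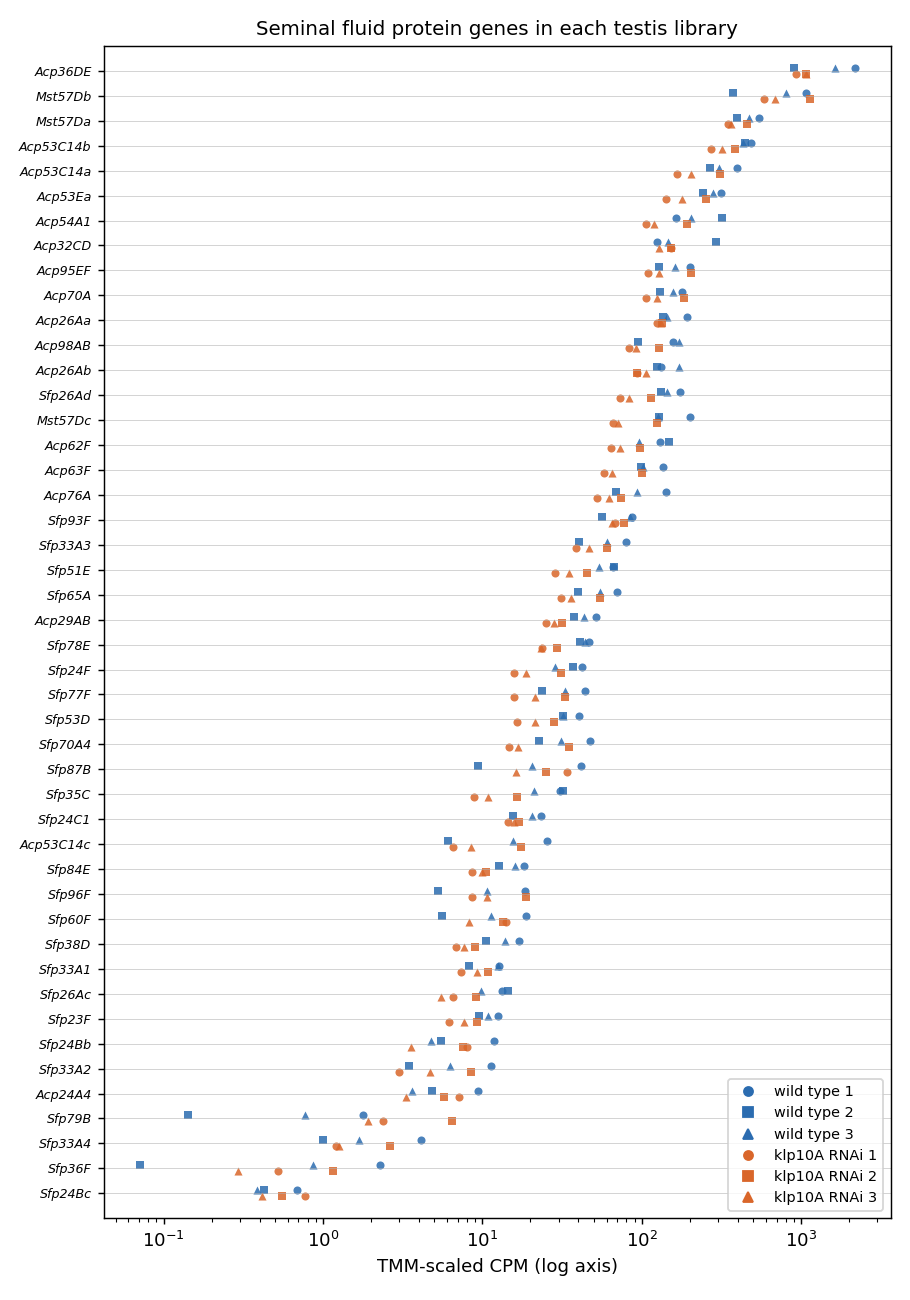
Level of each seminal fluid protein gene (rows, ordered by mean) in TMM-scaled CPM on a log axis, with 1 marker per library, wild type in blue and klp10A RNAi in orange. The levels span from under 1 CPM (Sfp24Ba, not drawn, and Sfp24Bc) to 2164 CPM (Acp36DE in wild type replicate 1), and for most genes the markers of the genotypes overlap.

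By edgeR's quasi-likelihood test, 0 of the 46 genes passed an adjusted p under 0.01, beside 2.02% of all features (1.83% lower and 0.198% higher in klp10A RNAi). At an unadjusted p under 0.05, 20 genes passed and 19 of these were lower in klp10A RNAi, beside 25.2% of all features in either direction and 15.6% lower. DESeq2 called 3 genes at an adjusted p under 0.01, Sfp35C, Sfp51E and Sfp78E, each lower, beside 6.45% of all features in either direction and 5.44% lower. At an adjusted p under 0.05 edgeR called 5 genes, Sfp35C, Sfp38D, Sfp51E, Sfp78E and Sfp84E, each lower, beside 7.60% of all features (6.01% lower and 1.60% higher), and under 0.1 it called 10 genes, beside 13.9% (9.83% lower). With TMM scaling 41 of the 46 genes were fitted lower in klp10A RNAi, which is 89.1% beside 49.2% of all features, while with scaling by total counts 28 of the 46 were, beside 15.2% of all features. With TMM the median log2 fold change was -0.51 for these genes and 0.01 for all features. With total counts the medians were -0.07 and 0.50. A change of scaling moves all features by nearly the same amount, so the distance between the medians is kept by construction.

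**Figure D2:**
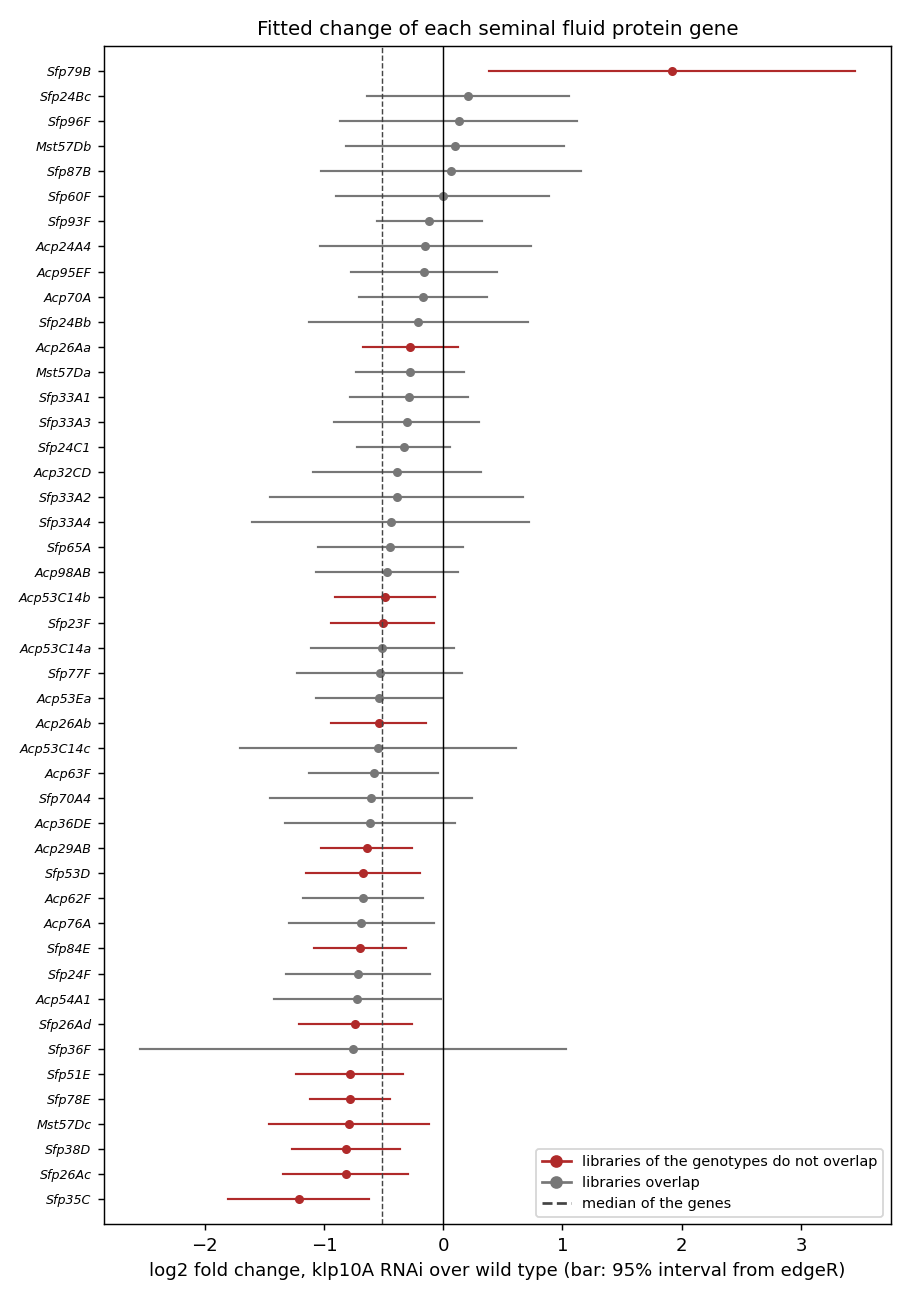
Fitted log2 fold change of the 46 tested genes with a 95% interval derived from edgeR's F-test, klp10A RNAi over wild type, TMM scaling. Red marks genes whose libraries do not overlap between genotypes, and the dashed line is the median of the genes. With TMM 41 genes lie below 0 and Sfp79B lies farthest above at 1.92; with scaling by total counts 28 lie below 0.

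For 14 genes all klp10A RNAi libraries lay below all wild type libraries, beside 18.4% of all features, and for 1 gene, Sfp79B, they lay above, beside 17.1%. The libraries of the other 31 genes overlapped. The 14 genes were Acp26Aa, Acp26Ab, Acp29AB, Acp53C14b, Mst57Dc, Sfp23F, Sfp26Ac, Sfp26Ad, Sfp35C, Sfp38D, Sfp51E, Sfp53D, Sfp78E and Sfp84E. With scaling by total counts, 4 genes lay below, beside 3.93% of all features, and 1 above, beside 38.2%. By symbol, with TMM, 17 of 17 Acp genes were fitted lower at a median of -0.54 on the log2 scale, 22 of 26 Sfp genes at -0.47 and 2 of 3 Mst57D genes at -0.28.

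**Figure D3:**
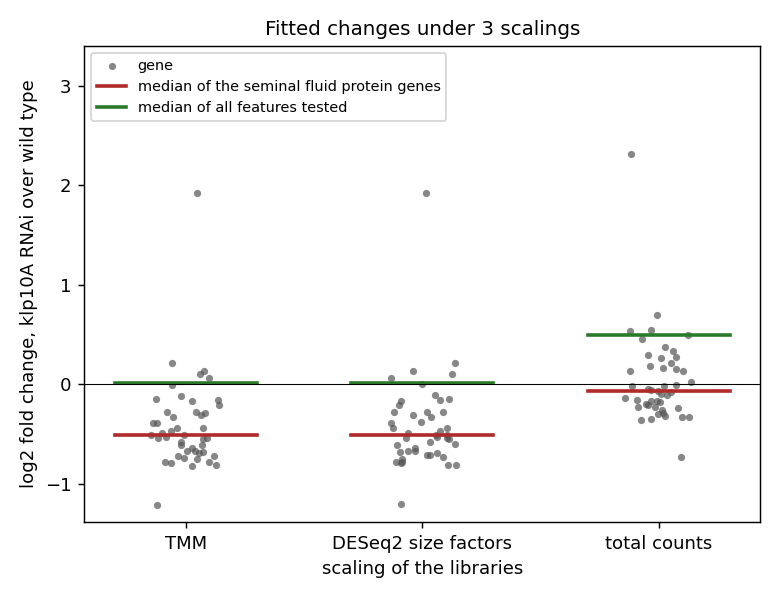
Fitted log2 fold changes of the 46 genes (points) under 3 scalings of the libraries, with their median in red and that of all features tested in green. With TMM and DESeq2 size factors the gene median lies near -0.51 and that of all features near 0; with total counts they lie at -0.07 and 0.50.

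Acp36DE, a glycoprotein that acts in sperm storage in the mated female, took the most counts of these genes over the libraries. Its level was 2164, 899 and 1618 CPM in wild type against 921, 1066 and 1076 CPM in klp10A RNAi. Wild type replicate 2 lay below every klp10A RNAi library, whereas wild type replicates 1 and 3 lay above all of them. The log2 fold change was -0.61 ± 0.31 (SE), with an edgeR adjusted p of 0.263. The 3 klp10A RNAi values were within 1.17-fold of each other, and the wild type values within 2.41-fold. In the RefSeq annotation it overlaps Fas3, a cell adhesion gene.

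The other genes with a known role in the sperm or in the female were placed as follows. Acp70A, the sex peptide, which lowers the receptivity of mated females and raises their egg laying, had 179, 130 and 157 CPM in wild type against 107, 185 and 124 CPM in klp10A RNAi. The highest value was in klp10A RNAi replicate 2 and the lowest in klp10A RNAi replicate 1, so the wild type lay within the range of the klp10A RNAi libraries (log2 fold change -0.17 ± 0.23, edgeR adjusted p = 0.663). With total counts the sign of its change was turned, at 0.27. Acp26Aa, or ovulin, which stimulates ovulation, had 192, 136 and 144 CPM in wild type against 124, 134 and 131 CPM in klp10A RNAi. The genotypes were separated by under 3 CPM, and the log2 fold change was -0.28 ± 0.17 with TMM and 0.21 with total counts. Its neighbour Acp26Ab had 131, 124 and 172 CPM in wild type against 93.1, 93.6 and 107 CPM in klp10A RNAi, a wider gap, with a log2 fold change of -0.54 ± 0.17 (edgeR adjusted p = 0.1).

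Acp29AB encodes a C-type lectin that acts in the retention of stored sperm. It had 51.5, 37.3 and 43.3 CPM in wild type against 24.9, 31.8 and 28.0 CPM in klp10A RNAi, with no overlap and a log2 fold change of -0.64 ± 0.17 (edgeR adjusted p = 0.055). Acp62F, a protease inhibitor, and Acp76A, a serpin, had log2 fold changes of -0.67 ± 0.22 and -0.69 ± 0.26, and the libraries of both overlapped between the genotypes. Acp62F was highest in wild type replicate 2 (148 CPM) and Acp76A lowest among wild type there (69.2 CPM), so these inhibitors did not order the wild type libraries alike.

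The Acp53 genes form a run of neighbours in the genome, with Acp53C14a, Acp53C14b, Acp53Ea and Acp53C14c in this order. Acp53Ea has been tied to sperm competition. Acp53C14b had 485, 443 and 433 CPM in wild type against 271, 382 and 317 CPM in klp10A RNAi, with no overlap (log2 fold change -0.49 ± 0.18, edgeR adjusted p = 0.145). Acp53C14a had 397, 266 and 302 CPM in wild type against 166, 308 and 204 CPM in klp10A RNAi, and Acp53Ea had 313, 243 and 278 CPM and then 143, 252 and 179 CPM. In both, klp10A RNAi replicate 2 reached into the wild type range. Acp53C14c, the one with the fewest counts, had 25.4, 6.12 and 15.6 CPM in wild type against 6.53, 17.5 and 8.42 CPM in klp10A RNAi. Its wild type values spanned 4.15-fold, against 1.12-fold for Acp53C14b.

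The Mst57D genes, named as male-specific transcripts, are neighbours as well, with Sfp96F between Mst57Dc and Mst57Db. Mst57Db had 1067, 373 and 801 CPM in wild type against 580, 1135 and 685 CPM in klp10A RNAi. Wild type replicate 2 was the lowest of the 6 libraries and klp10A RNAi replicate 2 the highest, and the log2 fold change was 0.10 ± 0.40 (edgeR adjusted p = 0.886). Sfp96F followed the same order of lowest and highest, with 18.6, 5.26 and 10.7 CPM in wild type against 8.58, 18.8 and 10.6 CPM in klp10A RNAi. For both, the sign turned to lower when replicate 2 of either genotype was left out. Mst57Da varied less, with 542, 393 and 473 CPM in wild type against 346, 453 and 363 CPM in klp10A RNAi. Mst57Dc had 200.2, 128 and 125 CPM in wild type against 65.7, 125 and 71.3 CPM in klp10A RNAi, and its libraries missed overlapping by less than 1 CPM.

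Among the other genes with many counts, Acp32CD and Acp54A1 went against the common order of the wild type libraries. Acp32CD had 125, 293 and 147 CPM in wild type against 152, 153 and 128 CPM in klp10A RNAi, so wild type replicate 2 was the highest of the 6 libraries. Its log2 fold change of -0.39 ± 0.31 turned to 0.08 without wild type replicate 2, and in the annotation it overlaps Samuel. Acp54A1 had 164, 318 and 203 CPM in wild type against 106, 192 and 119 CPM in klp10A RNAi, again with the highest value in wild type replicate 2. Acp95EF had 200.3, 128 and 162 CPM in wild type against 109, 203 and 128 CPM in klp10A RNAi, with the usual order.

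The 5 genes with an adjusted p under 0.05 all belong to the Sfp set, genes named as seminal fluid proteins whose single roles are less known. Sfp78E had 46.6, 41.2 and 43.8 CPM in wild type against 23.6, 29.5 and 23.3 CPM in klp10A RNAi. It was among the genes with the least spread, within 1.13-fold among wild type libraries, and was 1.72-fold lower in klp10A RNAi (log2 fold change -0.78 ± 0.15, edgeR adjusted p = 0.0181, DESeq2 adjusted p = 0.000285, 0.000285 to 0.441 over all alternatives). Sfp35C had 30.8, 32.0 and 21.1 CPM in wild type against 8.83, 16.5 and 10.8 CPM in klp10A RNAi. It had the lowest log2 fold change of the 46 genes, -1.21 ± 0.26 (edgeR adjusted p = 0.0281, DESeq2 adjusted p = 0.000635, 0.000635 to 0.127 over all alternatives).

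Sfp51E had 66.2, 67.2 and 53.6 CPM in wild type against 28.5, 45.1 and 35.0 CPM in klp10A RNAi (log2 fold change -0.78 ± 0.20, edgeR adjusted p = 0.0487). Sfp38D had 16.9, 10.5 and 13.9 CPM in wild type against 6.85, 8.96 and 7.71 CPM in klp10A RNAi (-0.81 ± 0.20, edgeR adjusted p = 0.0449). Sfp84E had 18.3, 12.7 and 16 CPM in wild type against 8.58, 10.5 and 9.97 CPM in klp10A RNAi (-0.70 ± 0.17, edgeR adjusted p = 0.0445). For these 5 genes all 3 klp10A RNAi libraries lay below all wild type libraries. Without wild type replicate 2, Sfp38D, Sfp78E and Sfp84E passed an adjusted p under 0.01 with edgeR, beside 3.17% of all features in place of 2.02%.

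Sfp79B was the gene with the highest log2 fold change, 1.92 ± 0.67, though its edgeR adjusted p was 0.123. It had 34, 2 and 16 counts in wild type against 59, 162 and 46 counts in klp10A RNAi, or 1.79, 0.142 and 0.771 CPM against 2.38, 6.42 and 1.92 CPM. The klp10A RNAi libraries all lay above the wild type ones, by little for replicate 3. With scaling by total counts it was the one gene called, as higher, beside 4.33% of all features, with an adjusted p of 6.88e-08 (6.88e-08 to 0.369 over all alternatives). Its neighbour in the genome is msopa, a male-specific gene outside the set, which had 125, 37.1 and 62.6 CPM in wild type against 158, 201 and 165 CPM in klp10A RNAi (log2 fold change 1.22 ± 0.39, edgeR adjusted p = 0.0958). In both genes wild type replicate 2 was lowest and klp10A RNAi replicate 2 highest.

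The spread among wild type replicates was larger for these genes than for most features. The median SD of log2(CPM + 0.5) over the 3 wild type libraries was 0.34 for the 46 genes and 0.24 for all features tested, and 35 of the 46 lay above the median of all features. Among the klp10A RNAi libraries the medians were 0.39 and 0.15, and 40 of the 46 lay above. In wild type the highest library was over 2-fold above the lowest for 15 genes, which is 32.6% beside 15.3% of all features. In klp10A RNAi this held for 11 genes, 23.9% beside 4.92%. The widest ratio in wild type was that of Sfp36F, with 43, 1 and 18 counts in replicates 1 to 3, and it rests on a single count.

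The spread had a shared direction. Wild type replicate 1 was the highest wild type library for 38 of the 46 genes, or 82.6% beside 34.5% of all features. Wild type replicate 2 was the lowest for 34, or 73.9% beside 41.5% of all features. The median ratio of wild type replicate 2 to the mean of replicates 1 and 3 was 0.741. In klp10A RNAi, replicate 2 was highest for 39 genes (84.8% beside 42.6% of all features) and lowest for 0, beside 39.1% of all features. Its median ratio to the mean of replicates 1 and 3 was 1.44. Without wild type replicate 2, 26 genes had no overlap between genotypes in place of 15, beside 46.1% of all features in place of 35.5%. Without klp10A RNAi replicate 2, 28 genes had none, beside 43.5% of all features. The summed CPM thus differed by 1.56-fold within wild type and 1.48-fold within klp10A RNAi, and both were wider than the ratio of the genotype means. Wild type replicate 2 also had the highest share of CR genes and the lowest TMM factor, at 51.6% and 0.702. Wild type replicate 1, the highest wild type library for most of these genes, was next in both, at 45.7% and 0.816. The part of the CR share and TMM factor in the low values of wild type replicate 2 was not tested.

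**Figure D4:**
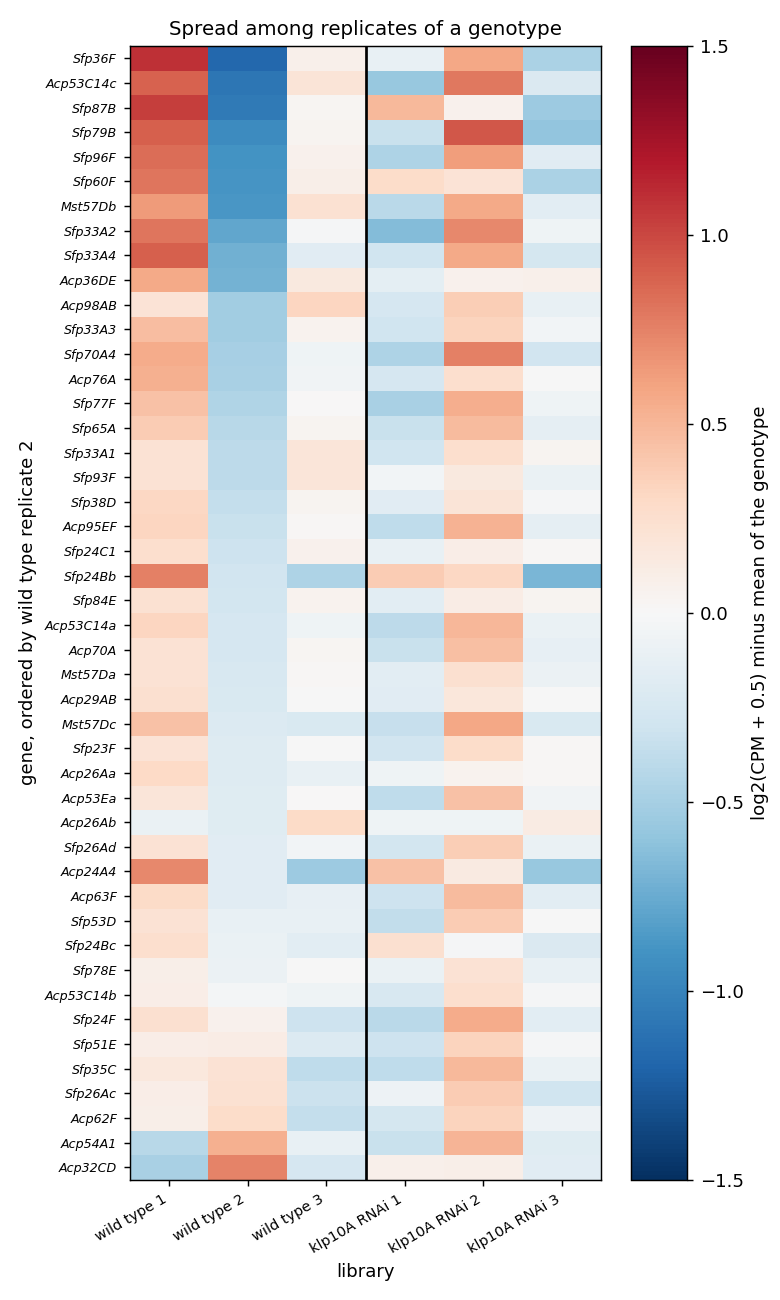
Deviation of each library from the mean of its genotype in log2(CPM + 0.5) for the 46 tested genes, ordered by wild type replicate 2; red is above and blue below the mean. Wild type replicate 1 and klp10A RNAi replicate 2 are above for most genes and wild type replicate 2 is below, with Acp32CD and Acp54A1 at the bottom as the clearest exceptions.

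The genes moved together across the 6 libraries. The Pearson correlation of a gene's log2(CPM + 0.5) with that of the sum of the other genes had a median of 0.88; it was above 0.8 for 28 genes and below 0.5 for 9. These points share library, depth and scaling, and the values are a description. Outside the set, CG42465 had the most similar pattern to the summed level (Pearson 0.998, Spearman 1 over the 6 libraries). It had 7.21, 3.20 and 5.01 CPM in wild type against 2.10, 4.36 and 2.42 CPM in klp10A RNAi, and lies next to Sfp24C1. CG42481 (Pearson 0.99) had 524, 266 and 399 CPM in wild type against 178, 388 and 224 CPM in klp10A RNAi. The next in likeness were CG43993, CG44205, Myo61F, CR43719, CG15831, CG43111, CG15841 and CG6555, the last 2 with identical values, and 48 genes outside the set had a correlation above 0.95.

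Among the 9 genes with a low correlation was a group with a different order of the libraries, singled out after their values were seen. Acp24A4, Sfp24Bb and Sfp24Bc, which lie on chromosome arm 2L and include Kunitz-type protease inhibitors, were highest in replicate 1 of each genotype, and so not in klp10A RNAi replicate 2. Acp24A4 had 9.42, 4.84 and 3.61 CPM in wild type against 7.13, 5.71 and 3.29 CPM in klp10A RNAi. Sfp24Bb had 11.8, 5.48 and 4.77 CPM in wild type against 7.98, 7.57 and 3.54 CPM in klp10A RNAi. Sfp24Bc had under 1 CPM in each library. In this they were like Peb, a protein of the ejaculatory bulb, which had 110, 81.3 and 68.5 CPM in wild type against 122, 87.7 and 60.3 CPM in klp10A RNAi. The correlation of log2(CPM + 0.5) with Peb was 0.94 for Acp24A4, 0.89 for Sfp24Bb and 0.94 for Sfp24Bc, beside 0.33, 0.47 and -0.02 with the sum of the other seminal fluid genes.

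Sfp60F and Sfp87B followed PebII, another gene of the ejaculatory bulb, more closely than Peb. Sfp60F had 18.8, 5.55 and 11.3 CPM in wild type against 14.1, 13.5 and 8.21 CPM in klp10A RNAi. Its neighbour in the RefSeq annotation is EbpII, the newer symbol of PebII, so Sfp60F is compared here with the gene next to it. Sfp87B had 41.6, 9.32 and 20.4 CPM in wild type against 33.9, 25.0 and 16.2 CPM in klp10A RNAi. PebII had 29.8, 12.2 and 18.0 CPM in wild type against 24.9, 22.7 and 14.8 CPM in klp10A RNAi. The correlation with PebII was 0.98 for each of these genes, beside 0.46 and 0.33 with the sum of the other seminal fluid genes. Peb and PebII were picked from the 7 duct and bulb genes with these values known, and the other 5 were less alike. The correlations of the same 5 seminal fluid genes with PebIII ran from 0.20 to 0.61 and with Anp from 0.01 to 0.69, and those with Dup99B, Est-6 and Gld were all below 0. For Acp24A4, Sfp24Bb, Sfp24Bc, Sfp60F and Sfp87B the log2 fold changes were between -0.21 and 0.21 with SEs of 0.37 to 0.48, and edgeR adjusted p-values from 0.736 to 0.997.

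Other genes of the male reproductive tract and of other tissues were set beside these genes as lists. Of all features, 49.2% were fitted lower with TMM and 15.2% with total counts, and the counts of each list stand beside these shares. Of 19 tested genes known from the accessory gland but outside the symbols above, 18 were fitted lower with TMM (9 with total counts), and the median of their log2 fold changes was -0.53. None passed an adjusted p under 0.01 with edgeR, beside 2.02% of all features. Under 0.05, 5 did, beside 7.60% (6.01% lower): CG30488, CG31872, BG642163, BG642312 and BG642167, each lower. Their sum was 4092, 5058 and 4252 CPM in wild type against 2981, 2939 and 3178 CPM in klp10A RNAi, so here the genotypes did not overlap with TMM and wild type replicate 2 was the highest library. The ratio of the sum of the Acp, Sfp and Mst57D genes to this sum was 1.89, 0.98 and 1.47 in wild type against 1.32, 1.98 and 1.40 in klp10A RNAi. The low value of wild type replicate 2 was therefore not shared by all genes of the gland.

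Some of the genes that act with sex peptide in its binding to stored sperm were high in wild type replicate 2 and others were not. CG17575, a cysteine-rich secretory protein of that group, had 148, 494 and 221 CPM in wild type against 208, 152 and 212 CPM in klp10A RNAi. The C-type lectin gene lectin-46Cb had 106, 469.9 and 145 CPM in wild type against 122, 105 and 123 CPM in klp10A RNAi, and lectin-46Ca had 117, 309 and 155 CPM and then 144, 119 and 139 CPM. CG9997, a serine protease homolog of the same group, had its lowest wild type value in replicate 2, with 75.6, 42.5 and 67.6 CPM in wild type against 46.3, 40.3 and 48.7 CPM in klp10A RNAi. Sex peptide itself also had its lowest wild type value in that library. CG31872, which took the most counts of this list, had 1007, 1081 and 1068 CPM in wild type against 661, 634 and 651 CPM in klp10A RNAi, with almost no spread within a genotype (log2 fold change -0.70 ± 0.17, edgeR adjusted p = 0.0445).

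**Figure D5:**
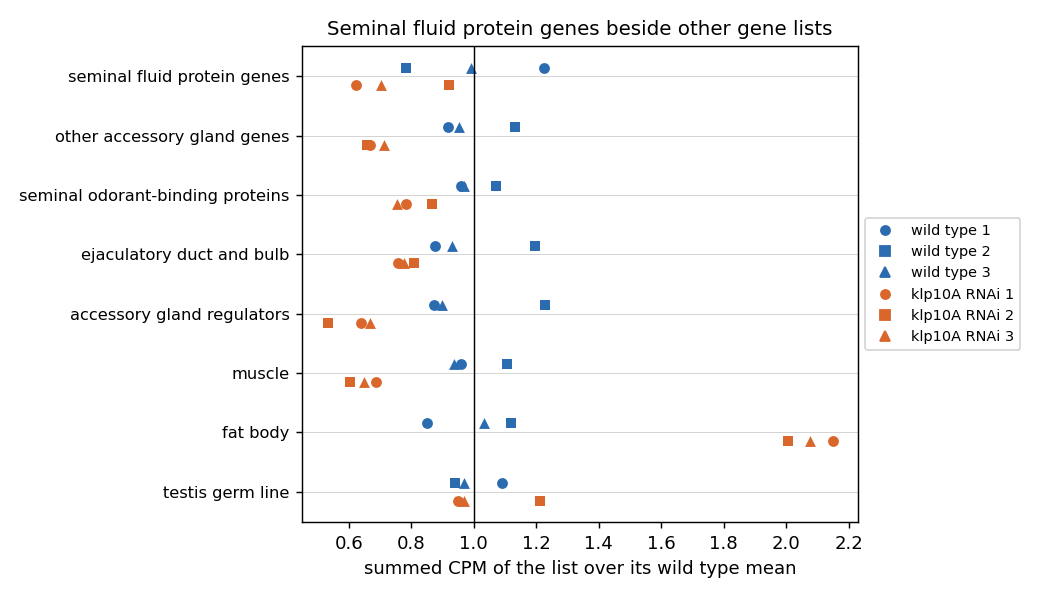
Summed CPM of each gene list in each library, divided by the wild type mean of that list, with wild type in blue and klp10A RNAi in orange, TMM scaling. The seminal fluid protein genes overlap between genotypes (0.784 to 1.22 in wild type, 0.623 to 0.919 in klp10A RNAi). Wild type replicate 2 is the lowest wild type library for them and for the testis germ line list. It is the highest wild type library for the other accessory gland, odorant-binding, duct and bulb, regulator, muscle and fat body lists.

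The odorant-binding protein genes of the seminal fluid were fitted lower for 6 of 7 with TMM (2 of 7 with total counts), with a median log2 fold change of -0.35. The ejaculatory duct and bulb genes were fitted lower for 4 of 7 (1 of 7 with total counts). Gld, the glucose dehydrogenase of the duct, had 254, 387 and 289 CPM in wild type against 156, 171 and 179 CPM in klp10A RNAi (log2 fold change -0.88 ± 0.20, edgeR adjusted p = 0.0333), and PebIII was higher in klp10A RNAi (0.82 ± 0.18, edgeR adjusted p = 0.033). The regulators prd, Abd-B, dsx and dve, of which prd is needed to form the accessory gland and Abd-B acts in its secondary cells, were all 4 fitted lower (3 of 4 with total counts). For prd the values were 29.7, 51.8 and 32.9 CPM in wild type against 24, 19.98 and 26.7 CPM in klp10A RNAi. With TMM the sums of these lists did not overlap between genotypes either. The duct and bulb sum was 1698, 2321 and 1808 CPM in wild type against 1468, 1569 and 1507 CPM in klp10A RNAi. The odorant-binding sum was 303, 338 and 305 CPM against 247, 273 and 238 CPM, and the regulator sum 59.6, 84.1 and 61.4 CPM against 43.6, 36.3 and 45.6 CPM.

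The 9 muscle genes, which are expressed in the sheaths of both the testis and the gland, were all fitted lower with TMM. With total counts 8 of 9 were, beside 15.2% of all features. With TMM all klp10A RNAi libraries lay below all wild type ones for each of the 9, beside 18.4% of all features. The median log2 fold change of the 9 muscle genes with TMM was -0.66. Their sum was 614, 710 and 599 CPM in wild type against 440, 387 and 416 CPM in klp10A RNAi. By edgeR, 6 of the 9 had an adjusted p under 0.05, beside 7.60% of all features (6.01% lower), and 0 under 0.01, beside 2.02%. In the fat body list, with 3 tested genes, Tsf1 was higher (1.26 ± 0.20) and Lsp2 lower (-1.64 ± 0.33), and Fbp1 and Fbp2 had at most 12 counts in a library. The part of the sheath or of other tissue in the levels of the seminal fluid genes was not tested.

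The 17 tested genes of the testis germ line were set beside them last. Their sum was 2978, 2563 and 2644 CPM in wild type against 2590, 3302 and 2638 CPM in klp10A RNAi, with overlap, and 2 of 17 were fitted lower with TMM (0 of 17 with total counts; median log2 fold change 0.12 with TMM). This list was not level in each gene. For 5 of the 17, nos, bam, aly, sa and fzo, all klp10A RNAi libraries lay above all wild type ones, beside 17.1% of all features. For 0 they lay below, beside 18.4%. The libraries of vas and can overlapped between genotypes, each with a log2 fold change of 0.12. Among the 5, aly had a log2 fold change of 0.68 ± 0.15 (edgeR adjusted p = 0.0341). The ratio of the summed seminal fluid genes to this sum was 2.6, 1.93 and 2.37 in wild type against 1.52, 1.76 and 1.68 in klp10A RNAi. By this ratio, which needs no scaling of the libraries, each klp10A RNAi library lay below each wild type library. The ratio to the fat body sum, of 3 genes, did not overlap either, at 29.1, 14.2 and 19.3 in wild type against 5.85, 9.24 and 6.83 in klp10A RNAi. Most of that sum was Tsf1, which was itself higher in klp10A RNAi. Tsf1 had 197, 303 and 266 CPM of a sum of 266, 350 and 324 CPM in wild type. In klp10A RNAi it had 636, 589 and 604 CPM of 673, 629 and 651 CPM. This ratio therefore largely follows Tsf1. The ratios to the other lists overlapped. Over the muscle sum it was 12.6, 6.99 and 10.5 in wild type against 8.96, 15.03 and 10.7 in klp10A RNAi. Over the regulators it was 130, 58.98 and 102 against 90.2, 160 and 97.5, and over the duct and bulb genes 4.56, 2.14 and 3.46 against 2.68, 3.70 and 2.95. In the ratio to the germ line genes, wild type replicate 2 and klp10A RNAi replicate 2 were the nearest between the genotypes, at 1.93 and 1.76.

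The genes lie on all the large autosome arms, 21 on 2L, 8 on 2R, 9 on 3L and 9 on 3R, and none was placed on another chromosome. In the RefSeq annotation, 15 of the 47 overlap another gene. Among them are Acp36DE, Acp32CD, Acp62F with Mrtf, Acp63F with Scsalpha1 and Acp95EF with Spase22-23. The 3 Sfp24B genes overlap Drgx, and Sfp33A2, Sfp33A3 and Sfp33A4 overlap Pde1c. The strand setting of the counting is not given in the sources used here, so reads of these genes and of their partners may not have been told apart. The 4 Sfp33A genes had log2 fold changes from -0.28 to -0.44 with wild type values that spanned 1.56-fold to 4.12-fold, and the least counted, Sfp33A4, with 14 counts in wild type replicate 2, had 4.10, 0.996 and 1.69 CPM in wild type against 1.21, 2.62 and 1.25 CPM in klp10A RNAi.

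Of the other genes, Acp63F, Acp98AB, Sfp23F, Sfp24C1, Sfp53D, Sfp65A, Sfp70A4, Sfp77F and Sfp93F had wild type replicate 2 as the lowest wild type library and klp10A RNAi replicate 2 as the highest of its genotype. Their log2 fold changes with TMM ran from -0.67 for Sfp53D to -0.11 for Sfp93F, and the sign of Sfp24C1 and Sfp93F turned with total counts. Sfp26Ad, the Sfp gene that took the most counts, had 173, 132 and 144 CPM in wild type against 72.8, 114 and 82.5 CPM in klp10A RNAi (log2 fold change -0.74 ± 0.21, edgeR adjusted p = 0.0701). Sfp26Ac had 13.3, 14.5 and 9.73 CPM in wild type against 6.53, 9.16 and 5.50 CPM in klp10A RNAi, and Sfp24F, a C-type lectin, 41.9, 37.1 and 28.6 CPM and then 15.7, 31.0 and 18.7 CPM. In both, wild type replicate 3 and not replicate 2 was the lowest wild type library.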

How the data were processed

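The authors aligned reads of rRNA-depleted RNA to dm3 with STAR 2.6.0a (up to 100 multi-alignments) and counted genes and TEs with TEtranscripts. The deposited table holds these counts, analysed as counts since they are whole numbers with unequal sums, although the labels speak of normalized counts. Labels gave genotype and replicate. The 3 libraries of a genotype are given as biological replicates. The p-values weigh the difference between genotypes against the spread between these libraries, which edgeR and DESeq2 moderate over all features. The authors' piRNA tables were not used here.

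Counts were tested with edgeR 4.0.16 in R 4.3.3 (TMM over genes and TEs, filterByExpr by genotype, quasi-likelihood F-test, Benjamini-Hochberg over 12100 features, threshold 0.01); DESeq2 1.42.0 was an alternative. Methods were tested on simulated data. SDs used log2(CPM + 0.5). The members and lists were chosen with earlier results of these data known. Values in each library are given for genes that took the most counts, paralog groups, Acp70A and the genes with an adjusted p under 0.05; any further gene was picked with its values known. Gene neighbours and overlaps come from the coordinates of the RefSeq annotation of Release 6. Its build differs from dm3, so no coordinates are printed. List symbols not in the table were left out. Intervals cover the fit only, and counts of 1 to 3 carry counting error. No reference sequence was used here.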

Additional observations from a re-analysis of the deposited data

How the results depend on the processing

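The count of 0 genes changed at an adjusted p under 0.01 (2.02% of all features) became 5 under 0.05 (7.60%) and 10 under 0.1 (13.9%). It was 1 with scaling by total counts (4.33% of all features) and 3 with DESeq2 (6.45%). Leaving out a library gave 0 to 3, beside 0.00816% to 3.17% of all features. The share called was lowest without klp10A RNAi replicate 1 (0.0653%) or 3 (0.00816%), where few features could pass at all. The log2 ratio of summed CPM, -0.42, became 0.028 with total counts and ran from -0.59 to -0.25 when a library was left out. The 15 genes without overlap (35.5% of all features) became 5 with total counts (42.1% of all features), and 14 to 28 when a library was left out (41.8% to 48.3%). Klp10A stayed at log2 fold changes from -2.47 to -2.27 when a library was left out, with adjusted p-values above 0.01 without klp10A RNAi replicate 1 (0.0114) or 3 (0.0174), by edgeR. With total counts, 524 features were called in place of 245, of which 263 in place of 221 were lower, and the median of all features moved to 0.50. Chosen after seeing the data, scaling by counts outside CR genes and TEs gave 0 calls, 40 of 46 genes fitted lower and a median of -0.48, and scaling by the sum of these genes' own counts gave 0 calls and 28 fitted lower, with a median wild type SD of 0.22.

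Over all features, replicate numbers showed no pairing of the samples (same-number correlations of -0.31, -0.43 and -0.12). Over the 46 seminal fluid protein genes these correlations were 0.08, -0.31 and 0.36. With the replicate number as a block, 0 genes were called by edgeR (15 at an unadjusted p under 0.05) and 98 features in place of 245.

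With total counts the sign of the log2 fold change turned for Acp24A4 (0.37), Acp26Aa (0.21), Acp32CD (0.16), Acp70A (0.27), Acp95EF (0.27), Mst57Da (0.18), Sfp24Bb (0.29), Sfp24C1 (0.13), Sfp33A1 (0.15), Sfp33A2 (0.018), Sfp33A3 (0.13), Sfp60F (0.46), Sfp93F (0.33). For Sfp60F, at -0.0028 in the fit reported, it was 0.0042 with DESeq2 and 0.098 with the replicate block. When a library was left out, these changed sign within the ranges Acp24A4 -0.41 to 0.36, Acp32CD -0.61 to 0.084, Acp95EF -0.46 to 0.025, Mst57Db -0.24 to 0.45, Sfp24Bb -0.45 to 0.32, Sfp24Bc -0.032 to 0.52, Sfp33A2 -0.88 to 0.13, Sfp33A4 -0.90 to 0.30, Sfp36F -1.43 to 0.32, Sfp60F -0.33 to 0.49, Sfp87B -0.31 to 0.74, Sfp96F -0.27 to 0.65. The cause was not tested.

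The filter on low counts (none, or at least 1 CPM in 3 libraries), DESeq2 size factors and TMM over genes alone kept each of these counts within 1.5 times. Genes with few counts are limited by depth: Sfp33A4, Sfp36F, Sfp79B, Sfp24Ba and Sfp24Bc had libraries with under 20 counts, so their folds are imprecise.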
